A study of Mus musculus with 9 samples.

Results

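The regulators of the nonmuscle actin cytoskeleton were followed in the skin of the mouse tail 14 days after surgery. Members were taken by gene symbol from the annotation of the array: the cytoplasmic actins and smooth muscle actin, the Arp2/3 subunits and other actin-related proteins, profilins, cofilins, thymosins, capping proteins, coronins, filamins, tropomyosins, unconventional myosins, and single genes such as Lcp1, Msn, Gsn, Cald1 and Vim. The rule used no measured value, but members and lists were chosen with earlier results of these data known. It found 55 genes on 189 array features, out of 10554 named genes on 42624 features. Of these, 53 genes on 160 features had a value on all 9 arrays and were tested together with 8644 genes in all.

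The samples were pools of tail skin RNA from female hairless SKH-1 mice, 3 weeks old, with 3 mice in each pool and 3 pools for each of 3 states. In lymphedema mice the tail skin was incised around its circumference, and the lymphatic trunks were made visible with a methylene blue injection and cauterized. Sham mice received the same incision and the injection with the lymphatics left intact, and normal mice had no surgery. Each pool was hybridized once, against RNA from whole embryos of day 17.5, to a cDNA array read with 2 dyes. Markers of basal and suprabasal keratinocytes had median ratios between 2.12 and 2.47 on all arrays, well above the embryo. All animals were of this strain, and a pool of whole skin carries the RNA of every cell type in it.

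Values are log2 ratios of tail skin over embryo RNA, each array being centered on its median. A value of 0 is therefore the ratio of the median feature, and clones of a gene were averaged. The labels and the study's methods give the dyes in opposite order. The direction used here is the likely one, read from the arrays themselves: between 23 and 25 of 25 genes typical of the embryo and its liver lay above the array median in the ratio as deposited, while 10 to 12 of 13 genes of adult skin lay below it, so its sign was turned. The base of the logarithm was not stated and was read as 2. Between 1.34% and 12.6% of features had no value on an array, and correlations between arrays ran between 0.818 and 0.96. The pattern of missing values also set lymphedema array 1 and all 3 normal arrays apart from the other 5 arrays: 186 features had values on these 4 arrays alone, against 45 for the next most frequent of 126 such divisions.

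Actin exists as monomers and as filaments. Profilin and the thymosins bind the monomer, the Arp2/3 complex starts branched filaments, capping proteins and gelsolin close or cut their ends, cofilin takes them apart, and tropomyosins, caldesmon and the crosslinkers bind along their sides. In skin these proteins shape migrating leukocytes, the fibroblasts of healing tissue, keratinocytes at a wound edge, and the contractile cells of vessels and erector muscles. Several members belong mainly to one lineage: L-plastin (Lcp1) and coronin 1A (Coro1a) to blood-derived cells, filamin C (Flnc) to striated muscle, and smooth muscle actin (Acta2) to vessel walls and myofibroblasts.

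In lymphedema against normal skin, 11 of the 53 members rose (20.8%) and 0 fell, at a limma adjusted p under 0.05 over all genes. The same test called 2.83% of all 8644 genes higher and 0.602% lower. After quantile normalization between arrays it called 1.3% of all genes higher and 0.833% lower, and 6 of the 53 members higher and 0 lower. The 11 were Lcp1, Coro1a, Cald1, Msn, Tmsb4x, Tmsb10, Vim, Tpm4, Pfn1, Tagln2 and Capg. The median difference over the 53 members was 0.39, against 0.10 over all genes (0.21 and -0.02 after quantile normalization, 0.24 and 0.03 after scaling arrays to one median absolute deviation). Of the members, 39 were above 0 and 14 below, while 61.9% of all genes were above 0. At an unadjusted limma p under 0.05 there were 26 members (background 20.5%). All 3 lymphedema pools lay above all 3 normal pools for 28 members, or 52.8% (background 23.6%), and below them for 4, or 7.55% (background 10.2%).

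The calls changed when single pools were left out. Leaving out any lymphedema or normal pool also lowered the share of all genes called higher. Leaving out lymphedema pool 1, lymphedema pool 2, normal pool 1 or normal pool 2 left 0 members called, and the test then called between 0.104% and 0.197% of all genes higher. Without lymphedema pool 3 there were 2 calls (0.74% of all genes), and without normal pool 3 there were 4 (0.648%). Leaving out sham pool 1 kept all 11 calls and added Tpm2 (3.92% of all genes). Leaving out sham pool 2 gave 7 (2.59%), and leaving out sham pool 3 gave 18 higher and 1 lower (5.6% and 1.61%). Of the 2 sets of arrays seen in the missing values, one held all normal arrays and, of the lymphedema arrays, array 1 alone. With the set as a block, lymphedema against normal skin thus rested on lymphedema array 1 against the normal arrays. The median member difference was then 0.30, and calls cannot be judged from 1 array. SAM, the test of the study's methods, called 23 members higher and 1, Cnn2, lower at a false discovery rate of 5% (background 16.4% and 2.04%).

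**Figure D1:**
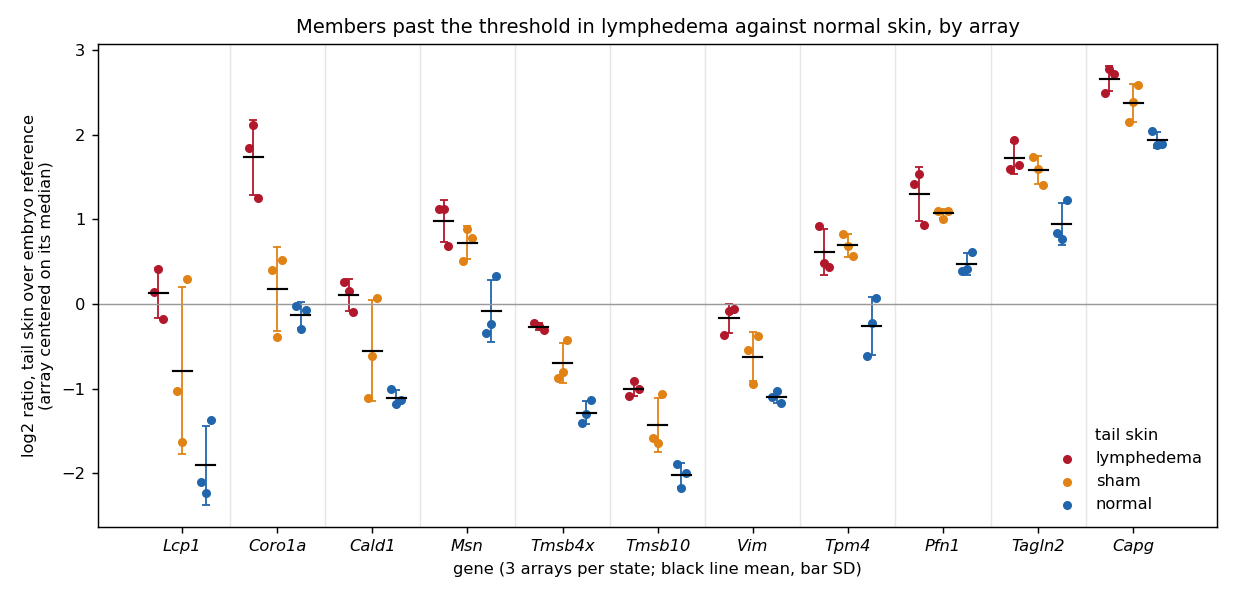
Log2 ratio of tail skin over embryo reference (vertical axis) of the 11 members past the threshold, with 1 point per array, black lines for means and bars for SD of 3 arrays. Every lymphedema point lies above every normal point of the same gene, and most sham means lie between them.

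Of the crosslinking and bundling proteins, Lcp1 had the largest difference among all members. It encodes L-plastin, which bundles filaments in leukocytes. Its log2 ratio was 0.14, 0.42 and -0.17 in lymphedema pools, -1.03, -1.63 and 0.30 in sham pools and -2.11, -2.24 and -1.38 in normal pools. Sham pool 3 thus lay within the lymphedema range while the other sham pools were lower, pool 2 within the normal range. Lcp1 was 4.10-fold higher in lymphedema than in normal skin (log2 difference 2.04 ± 0.41, SE; limma adjusted p = 0.0288). Against sham skin the difference was 0.92 ± 0.41 (limma adjusted p = 0.668).

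The filamins link filaments into networks. Flna, the widespread form, differed by 0.35 ± 0.20 (SE) between lymphedema and normal skin, with a limma adjusted p of 0.354. Flnc gave -2.95, -2.54 and -2.86 in lymphedema pools, -2.62, -2.62 and -1.66 in sham pools and -3.48, -2.97 and -3.32 in normal pools, so sham pool 3 was the highest of the 9 arrays. Its differences were 0.47 ± 0.27 for lymphedema and 0.96 ± 0.27 for sham against normal skin (limma adjusted p = 0.348 and 0.352).

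Coronins bind filaments together with the Arp2/3 complex, and Coro1a is the form of blood-derived cells. Coro1a had the largest difference after Lcp1, with ratios of 1.84, 2.11 and 1.25 in lymphedema pools, 0.40, -0.39 and 0.52 in sham pools and -0.02, -0.30 and -0.07 in normal pools. The 3 lymphedema pools lay above all other pools, and sham and normal pools overlapped. The gene was 3.63-fold higher in lymphedema than in normal skin (log2 difference 1.86 ± 0.27, SE; limma adjusted p = 0.0137). It was 2.94-fold higher in lymphedema than in sham skin, which did not pass the test (log2 difference 1.55 ± 0.27; limma adjusted p = 0.166). The more widely expressed coronins gave differences of 0.04 ± 0.17 for Coro1b, -0.19 ± 0.23 for Coro1c and 0.36 ± 0.23 for Coro7 (SE), and their pools overlapped between lymphedema and normal skin. Coro2b had 7 values of 9 and was not tested.

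Markers of blood-derived cells moved with both genes. Of 17 leukocyte markers that are not members, 8 rose and 0 fell in lymphedema against normal skin, with a median difference of 1.12, led by Fcer1g (2.48) and Lyz2 (1.95). Their median ratio ranged between 0.36 and 0.77 on lymphedema arrays, between -0.51 and 0.57 on sham arrays, and between -0.39 and -0.34 on normal arrays. Of 8 neutrophil markers 4 rose, with a median difference of 0.97. Sham array 3 stood high here as well: its leukocyte markers lay 0.96 above the normal mean at the median, against 0.47 and -0.05 on sham arrays 1 and 2. The part of these cells in the rise of Lcp1 and Coro1a was not tested. In whole skin, more cells of a type and more RNA per cell cannot be told apart.

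The first of 2 promoters listed for each of these leading genes is shown because both genes rose, with 300 bases each from RefSeq (build GRCm38.p6), 250 bases before the start and 50 after it. Capitals mark GGGCGG on either strand, the core of the GC box bound by Sp1.
Lcp1, chr14:75130873-75131172, plus strand: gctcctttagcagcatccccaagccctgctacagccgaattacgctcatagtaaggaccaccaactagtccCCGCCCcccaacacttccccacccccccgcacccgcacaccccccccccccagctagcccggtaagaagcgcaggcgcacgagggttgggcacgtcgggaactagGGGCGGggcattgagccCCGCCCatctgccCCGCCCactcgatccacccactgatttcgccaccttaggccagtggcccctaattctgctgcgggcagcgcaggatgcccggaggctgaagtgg
Coro1a, chr7:126704767-126705066, minus strand: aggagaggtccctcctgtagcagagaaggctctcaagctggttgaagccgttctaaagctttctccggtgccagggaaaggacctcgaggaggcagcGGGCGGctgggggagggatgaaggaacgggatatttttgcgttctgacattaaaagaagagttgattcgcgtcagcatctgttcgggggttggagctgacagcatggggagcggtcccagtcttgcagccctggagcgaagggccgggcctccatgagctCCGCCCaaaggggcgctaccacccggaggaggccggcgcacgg
GGGCGG was found in 4 places in the Lcp1 window and in 2 in the Coro1a window. The other promoter of Lcp1 held 0 matches and that of Coro1a held 1. It occurred in 76.6% of the 64 promoters of 48 member genes and in 35.7% of all 32851 promoters of the same length. GAGGAA, the core that PU.1 and related factors of blood cells recognize, occurred on either strand in 21.9% of member promoters and 28.3% of all, and in neither window shown. TATAAA occurred in 6.25% of member promoters and 13.6% of all. These are matches of letters and not measured sites.

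Thymosin beta 4 (Tmsb4x) and thymosin beta 10 (Tmsb10) hold actin monomers in reserve, and both rose 2.02-fold. Tmsb4x had ratios of -0.23, -0.27 and -0.31 in lymphedema pools, -0.87, -0.80 and -0.43 in sham pools and -1.41, -1.30 and -1.14 in normal pools. The 3 states formed separate ranges, with lymphedema highest and normal lowest. Its log2 difference between lymphedema and normal skin was 1.02 ± 0.17 (SE; limma adjusted p = 0.0198), and that between lymphedema and sham skin was 0.43 ± 0.17 (limma adjusted p = 0.648). Each of its 3 clones was called by itself, with differences between 0.99 and 1.07.

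Tmsb10 had ratios of -1.09, -0.91 and -1.01 in lymphedema pools, -1.59, -1.64 and -1.07 in sham pools and -1.89, -2.17 and -1.99 in normal pools. Lymphedema and normal pools did not overlap, and sham pool 3 lay among the lymphedema pools. The log2 difference between lymphedema and normal skin was 1.01 ± 0.19 (SE; limma adjusted p = 0.0270). Its clones with all values were not alike: one differed by 0.03, and the other 2 by 1.43 and 1.58, both called. Further clones lacked a value on lymphedema array 2. One read -1.20 and -0.98 in lymphedema and -1.52, -1.53 and -1.32 in normal pools. Another read 0.27 and 0.22 in lymphedema and 0.18, 0.22 and 0.23 in normal pools. Tmsb10 was not called when features with 2 of 3 values per group were admitted.

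Profilin 1 (Pfn1) hands monomers to growing filament ends. Its ratios were 1.42, 1.54 and 0.94 in lymphedema pools, 1.10, 1.01 and 1.10 in sham pools and 0.38, 0.41 and 0.62 in normal pools. Both operated states lay above all normal pools and overlapped with each other. Pfn1 differed by 0.83 ± 0.19 between lymphedema and normal skin (SE; limma adjusted p = 0.0399) and by 0.60 ± 0.19 between sham and normal skin (limma adjusted p = 0.426).

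The cofilins sever and disassemble filaments, Cfl1 being the nonmuscle form and Cfl2 the muscle form. Cfl1 had ratios of -0.33, 0.01 and -0.01 in lymphedema pools, -0.21, -0.65 and -0.14 in sham pools and -0.76, -0.87 and -0.83 in normal pools, without overlap between lymphedema and normal pools. Its log2 difference of 0.71 ± 0.19 (SE) did not pass the test (limma adjusted p = 0.0659). For Cfl2 the difference was -0.29 ± 0.26 (limma adjusted p = 0.575). Wdr1, which helps cofilin, differed by 0.07 ± 0.22 as a mean of 4 clones that lay between -1.34 and 0.98, and the clone at -1.34 was called lower by itself. No direction can be given for Wdr1 from these clones.

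The 3 actins were above normal skin in lymphedema without passing the test. Beta actin (Actb) is a common reference gene in expression work. Averaged over 13 clones, it had ratios of -0.49, -0.06 and -0.30 in lymphedema pools, -0.59, -0.54 and -0.29 in sham pools and -0.80, -0.87 and -1.03 in normal pools. Lymphedema and sham pools all lay above the normal pools. The log2 difference between lymphedema and normal skin was 0.62 ± 0.18 (SE; limma adjusted p = 0.0836), and each of the 13 clones was positive, between 0.25 and 1.11.

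Gamma actin (Actg1), the other cytoplasmic form, had ratios of -0.12, 0.12 and -0.42 in lymphedema pools, -0.90, -0.67 and 0.11 in sham pools and -0.85, -0.90 and -0.92 in normal pools. Sham pool 1 lay among the normal pools, sham pool 2 above them and sham pool 3 at the upper end of lymphedema. The log2 difference was 0.75 ± 0.25 (SE; limma adjusted p = 0.123). Smooth muscle actin (Acta2) gave -1.03, -0.58 and -1.01 in lymphedema pools, -1.14, -1.44 and -0.55 in sham pools and -1.61, -1.54 and -1.66 in normal pools, with all pools of both operated states above normal and a difference of 0.73 ± 0.23 in lymphedema (limma adjusted p = 0.107). All 3 actins were called higher when sham pool 3 was left out and when the fit held the 6 lymphedema and normal arrays alone, where 7.1% of all genes were called higher. Of 8 other markers of smooth muscle and pericytes, 1 rose, and their median difference was 0.44.

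The tropomyosins and other proteins that bind along the filament had the highest median difference among the roles with more than 1 member, 0.78 over 7 genes, and 3 of them rose. Caldesmon (Cald1) restrains myosin on actin filaments. Its ratios were 0.26, 0.15 and -0.10 in lymphedema pools, -1.11, -0.61 and 0.07 in sham pools and -1.01, -1.18 and -1.13 in normal pools. The sham pools ran between the normal and the lymphedema range and overlapped with both. Cald1 was 2.32-fold higher in lymphedema than in normal skin (log2 difference 1.21 ± 0.26, SE; limma adjusted p = 0.0343), and its 7 clones were all positive, between 0.40 and 1.74.

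Tropomyosin 4 (Tpm4), a nonmuscle form, had ratios of 0.92, 0.48 and 0.44 in lymphedema pools, 0.82, 0.69 and 0.56 in sham pools and -0.62, -0.23 and 0.07 in normal pools. Sham and lymphedema pools shared one range above the normal pools. The log2 differences were 0.88 ± 0.21 for lymphedema and 0.95 ± 0.21 for sham against normal skin (SE; limma adjusted p = 0.0494 and 0.223). It was the single called member whose sham mean was not between the other means.

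Transgelin 2 (Tagln2), a nonmuscle relative of calponin, had ratios of 1.59, 1.94 and 1.64 in lymphedema pools, 1.74, 1.60 and 1.41 in sham pools and 0.83, 0.77 and 1.23 in normal pools. Again both operated states lay above all normal pools. The log2 difference between lymphedema and normal skin was 0.78 ± 0.19 (SE; limma adjusted p = 0.0479), and that between sham and normal skin was 0.64 ± 0.19 (limma adjusted p = 0.386). Transgelin itself was on 6 features whose annotation also names Pcsk7, and these were not used.

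Tropomyosin 2 (Tpm2), abundant in muscle, had ratios of -1.50, -1.42 and -1.78 in lymphedema pools, -2.01, -1.95 and -1.09 in sham pools and -2.49, -2.40 and -2.54 in normal pools. Its difference of 0.91 ± 0.24 (SE) in lymphedema against normal skin did not pass the test (limma adjusted p = 0.0657). Tpm1 and Tpm3 differed by 0.46 ± 0.27 and 0.41 ± 0.19, with all lymphedema pools above normal, but the 10 clones of Tpm1 lay anywhere between -0.72 and 1.15. Clones of one tropomyosin gene can carry different splice forms, which the average does not separate.

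Calponin 2 (Cnn2), which binds actin in nonmuscle and smooth muscle cells, had values opposite in sign to the other members of its role. Its ratios were 0.07, 0.37 and 0.38 in lymphedema pools, -1.28, -0.17 and 1.30 in sham pools and 1.54, 1.06 and 1.51 in normal pools. All lymphedema pools were below all normal pools, and the sham pools spanned a wider range than either. The log2 difference of -1.10 ± 0.48 (SE) between lymphedema and normal skin did not pass the test (limma adjusted p = 0.226). It did so in the fit of lymphedema and normal arrays alone (limma adjusted p = 0.00977), where 2.64% of all genes were called lower. The other Cnn2 clone, without a value on normal array 1, read -0.91, -0.38 and -0.35 in lymphedema, -1.39, -1.04 and -0.24 in sham, and -0.63 and -0.53 in normal skin. On that clone the lymphedema values lay on both sides of the normal ones.

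Tpm1, Tpm2, Flnc, Cfl2 and Acta2 were highest on sham array 3, as the plot of contractile members by array shows. These genes were chosen for the plot after their values were seen. Sham array 3 was the highest of the 9 arrays for 2 of the 7 tropomyosins and filament-side binders and for 1 of the 3 actins. Across all 53 members, sham array 3 was the highest sham array for 29 and the highest of all 9 arrays for 13. The 15 skeletal muscle markers lay 1.38 above the normal mean at the median on sham array 3, against 0.05 and 0.43 on sham arrays 1 and 2. Tnnt3, a troponin of fast skeletal muscle, read -4.57, -3.98 and -2.81 on the 3 sham arrays. Fibroblast markers on the same array lay 0.90 above the normal mean. In lymphedema against normal skin 0 skeletal muscle markers were called and their median difference was 0.30. Their part in the member values was not tested.

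**Figure D2:**
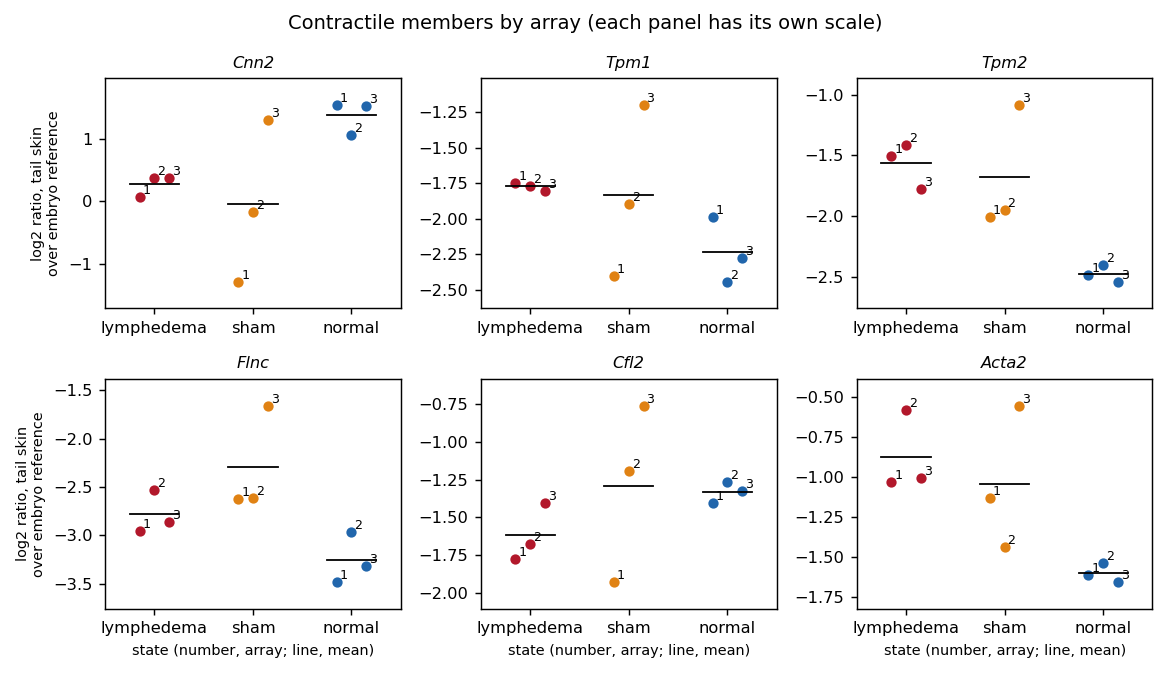
Log2 ratio of tail skin over embryo reference (vertical axis, scaled for each panel) of 6 contractile members, chosen after their values were seen, with 1 numbered point per array and a line at the mean of each state. Sham array 3 is the highest of the 9 arrays for Tpm1, Tpm2, Flnc, Cfl2 and Acta2, and Cnn2 is lower in all lymphedema pools than in all normal pools.

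Moesin (Msn), ezrin (Ezr) and radixin (Rdx) tie filaments to the plasma membrane. They are close relatives with different homes, moesin in leukocytes and endothelium, ezrin in epithelia. Msn had ratios of 1.13, 1.13 and 0.69 in lymphedema pools, 0.51, 0.88 and 0.78 in sham pools and -0.34, -0.24 and 0.33 in normal pools. Both operated states lay above all normal pools. The log2 difference was 1.06 ± 0.22 (SE; limma adjusted p = 0.0300) in lymphedema and 0.81 ± 0.22 in sham against normal skin (limma adjusted p = 0.343).

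Ezr gave 0.86, 1.04 and 1.25 in lymphedema pools, 1.71, 1.29 and 1.13 in sham pools and 1.30, 1.19 and 1.25 in normal pools, and its difference in lymphedema against normal skin was -0.19 ± 0.19 (limma adjusted p = 0.609). For Rdx the difference was 0.01 ± 0.18 over the clones with all values, with overlapping pools. Its other clones each lacked a value on an array. One read -0.173, -0.641 and -0.620 in lymphedema and 0.132 and 0.938 in normal pools. Another read 0.195, -0.555 and -0.202 in lymphedema and 1.144 and 1.116 in normal pools. On both, lymphedema lay below normal skin. A further clone read -0.751, -1.029 and -0.415 in lymphedema and -0.879, -0.903 and -1.119 in normal pools, with overlap. Of 8 markers of blood endothelium 2 rose, Eng and Kdr, with a median difference of 0.61 for the list. The 12 markers of basal and suprabasal keratinocytes had a median difference of 0.09, and 0 of them were called. Of 15 listed markers of wound-activated keratinocytes, 6 were measured, with a median of 0.83. Of these 6, 3 rose: Serpinb3a, Stfa1 and Stfa3. Which cells carried the RNA of these 3 genes was not tested. The part of these cell types in the rise of Msn was not tested. None of 8 markers of lymphatic endothelium was measured on all arrays. Vinculin (Vcl), which anchors filaments at adhesions, differed by 0.39 ± 0.16 in lymphedema and by 0.50 ± 0.16 in sham against normal skin, without overlap in either case (limma adjusted p = 0.210 and 0.440).

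Vimentin (Vim), the intermediate filament of mesenchymal cells and leukocytes, was part of the rule as a partner of actin. Its ratios were -0.37, -0.08 and -0.06 in lymphedema pools, -0.54, -0.95 and -0.38 in sham pools and -1.10, -1.02 and -1.17 in normal pools. The 3 states formed separate ranges, as for Tmsb4x. The log2 difference was 0.93 ± 0.19 (SE) between lymphedema and normal skin (limma adjusted p = 0.0288) and 0.45 ± 0.19 between lymphedema and sham skin (limma adjusted p = 0.648). All 5 clones were positive, between 0.60 and 1.36. Of 12 fibroblast markers, 1 rose, and their median difference was 0.66.

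Among the proteins that cap or cut filaments, Capg, a capping protein abundant in macrophages, rose. Its ratios were 2.49, 2.78 and 2.71 in lymphedema pools, 2.15, 2.38 and 2.59 in sham pools and 2.05, 1.88 and 1.89 in normal pools. All sham pools lay between the highest normal and the highest lymphedema pool. The log2 difference between lymphedema and normal skin was 0.72 ± 0.18 (SE; limma adjusted p = 0.0494). Of its 2 clones, one differed by 0.31 and was not called, and the other differed by 1.13 and was called.

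Gelsolin (Gsn), which severs and caps filaments in the presence of calcium, was the one member with all lymphedema pools below all sham pools (1 of 53, background 3.69%). Its ratios were 0.45, 0.69 and 0.47 in lymphedema pools, 1.29, 1.00 and 0.80 in sham pools and 0.89, 0.90 and 0.78 in normal pools. The lymphedema pools were also below the normal pools. The log2 differences were -0.50 ± 0.18 against sham and -0.32 ± 0.18 against normal skin (SE; limma adjusted p = 0.563 and 0.340). Of its 11 clones, 8 were below 0 and 3 above in lymphedema against normal skin.

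The subunits of the capping protein that closes the fast-growing end had smaller differences: 0.53 ± 0.20 for Capza2, 0.35 ± 0.19 for Capzb, 0.08 ± 0.16 for Capza1 and -0.06 ± 0.21 for Capza3, the form of the testis. All 9 clones of Capza2 were positive, and its lymphedema pools did not overlap with normal ones. Of the 4 clones of Capzb, 3 were positive, up to 0.74, and 1 was negative at -0.26. The negative clone read between -7.91 and -6.10 on all arrays, far below the others, and lowered the mean ratio of Capzb. None of the 4 subunits passed the test.

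Of the Arp2/3 complex and the actin-related proteins, 0 of 10 were called, and the median difference was 0.32. The highest of the Arp2/3 subunits was Arpc1b, the form prominent in blood cells, with ratios of 0.51, 0.93 and 0.98 in lymphedema pools, 0.57, 0.12 and 0.79 in sham pools and 0.11, 0.10 and 0.08 in normal pools. Both operated states lay above normal skin, where the 3 pools differed by little. The log2 difference was 0.71 ± 0.21 (SE; limma adjusted p = 0.0857). Its paralog Arpc1a differed by 0.20 ± 0.27 (limma adjusted p = 0.729), and the difference between the 2 paralogs was not tested.

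Arpc2 was the one subunit with all lymphedema pools above all sham and all normal pools. Its ratios were 0.78, 0.97 and 0.68 in lymphedema pools, 0.40, 0.64 and 0.50 in sham pools and 0.31, 0.31 and 0.22 in normal pools. The differences were 0.52 ± 0.16 against normal and 0.29 ± 0.16 against sham skin (SE; limma adjusted p = 0.100 and 0.692). Actr3, Arpc4, Arpc5 and Arpc5l differed from normal skin by 0.49 ± 0.20, 0.42 ± 0.26, 0.03 ± 0.20 and -0.11 ± 0.17, and none passed the test.

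Other actin-related proteins do not nucleate filaments. Actr8 and Actr6 belong to chromatin remodeling complexes of the nucleus, and Actr1a to dynactin, which moves cargo on microtubules. Actr8 differed by 0.78 ± 0.22 and Actr6 by -0.63 ± 0.25 between lymphedema and normal skin, each on 1 clone and each without overlap (limma adjusted p = 0.0818 and 0.178). The differences had opposite signs, and neither passed the test.

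The unconventional myosins, motors that carry membranes and organelles along filaments, had a median difference of -0.05 over 9 genes, the lowest of the 10 roles. Of these, 3 were above 0, 6 were below, and 0 were called. They were the one role whose median was below 0 in lymphedema against normal skin. Myo9a was highest at 0.43 ± 0.18 (SE; limma adjusted p = 0.202). Myo7a, best known from sensory hair cells and pigment epithelium, was lowest, with ratios of 0.12, -0.38 and -0.51 in lymphedema pools, -0.53, -0.28 and 0.58 in sham pools and 0.06, 0.67 and 0.21 in normal pools and a difference of -0.57 ± 0.29 (limma adjusted p = 0.303). Its pools overlapped in every comparison. Myo1d was on 2 features without a full set of values and was not tested.

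**Figure D3:**
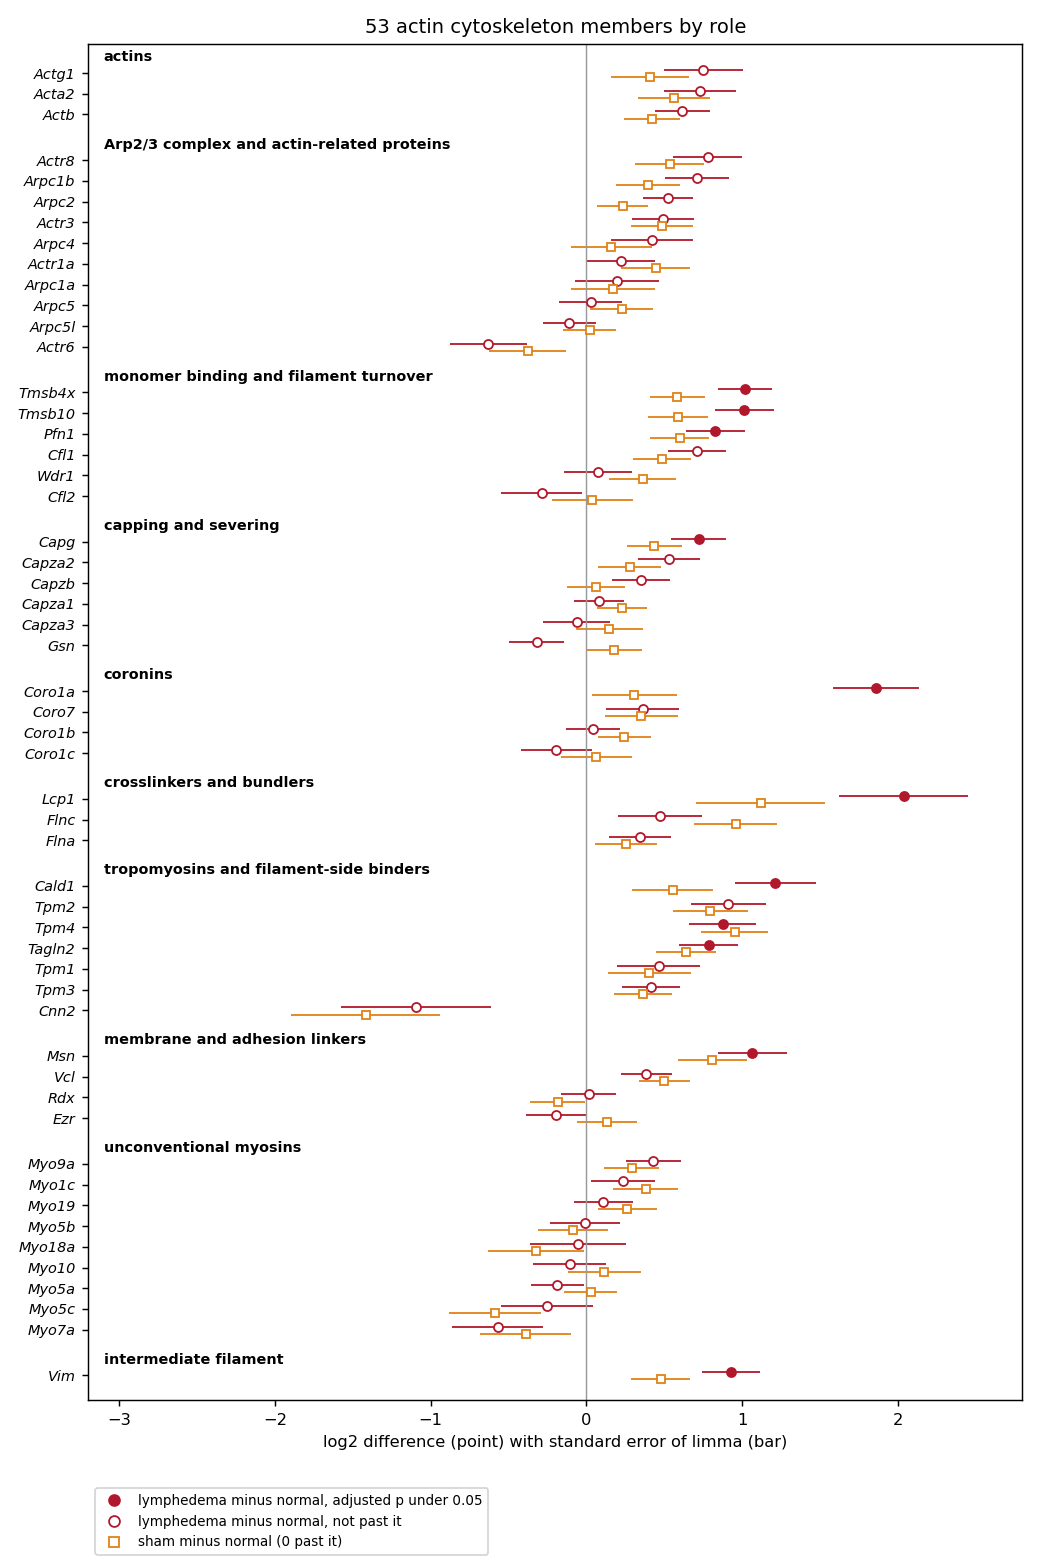
Log2 difference against normal skin (horizontal axis) of the 53 tested members, grouped by role, with circles for lymphedema, squares for sham and bars for limma standard errors. The 11 filled circles passed the test and all lie right of 0, while the unconventional myosins lie on both sides of it.

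Sham against normal skin covers the incision together with the methylene blue injection. It uses the same normal pools, so its values stand beside those of lymphedema as a description. All 3 sham arrays lay in one set of the missing values and all 3 normal arrays in the other. The effect of the set could thus be read only from lymphedema array 1 against lymphedema arrays 2 and 3. With the set as a block, the median member difference was 0.23, and single differences moved both ways. They were 0.12 ± 0.31 for Actb, 0.18 ± 0.34 for Vim and 0.18 ± 0.32 for Capg (SE). Without it they were 0.42, 0.48 and 0.43. Tpm4, Msn and Cald1 had 1.41 ± 0.37, 1.03 ± 0.41 and 0.79 ± 0.49 with the block. Without it they had 0.95, 0.81 and 0.56. Of 53 members, 46 were above 0 and 7 below (59.6% of all genes above 0), with a median of 0.31 against 0.06 over all genes, and 0 were called (0% of all genes, higher or lower). At an unadjusted limma p under 0.05 there were 18 members (background 7.92%), and SAM called 0 (0.231% of all genes higher). All sham pools lay above all normal pools for 20 members (background 9.71%) and below them for 0 (background 3.08%). The highest differences were 1.12 ± 0.41 for Lcp1, 0.96 ± 0.27 for Flnc, 0.95 ± 0.21 for Tpm4, 0.81 ± 0.22 for Msn and 0.80 ± 0.24 for Tpm2 (SE). The lowest were -1.42 ± 0.48 for Cnn2, -0.59 ± 0.29 for Myo5c, -0.39 ± 0.29 for Myo7a, -0.38 ± 0.25 for Actr6 and -0.32 ± 0.31 for Myo18a. Without sham pool 3, Cnn2 was called lower (log2 difference -2.09; limma adjusted p = 0.0314), as were 0.0925% of all genes.

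Lymphedema against sham skin asks what interrupted lymph flow adds to the incision. Here 33 members were above 0 and 20 below (58.9% of all genes above 0), the median was 0.09 against 0.06 over all genes, and 0 were called (0.0116% of all genes in each direction). SAM called 0 (0.0347% of all genes higher), and 7 members had an unadjusted limma p under 0.05 (background 7.44%). All lymphedema pools lay above all sham pools for 4 members, Coro1a, Vim, Tmsb4x and Arpc2 (background 6.63%). The share of members without overlap was thus near the background in this comparison. Besides Coro1a, Lcp1, Vim and Tmsb4x, the highest difference was that of Cald1, 0.66 ± 0.26 (SE; limma adjusted p = 0.643). After Gsn, the lowest were -0.48 ± 0.27 for Flnc, -0.32 ± 0.19 for Ezr, -0.32 ± 0.26 for Cfl2 and -0.29 ± 0.22 for Wdr1. Without sham pool 3, 2 members were called higher (0.891% of all genes), Coro1a (log2 difference 1.73; limma adjusted p = 0.0227) and Lcp1 (1.46; limma adjusted p = 0.0465).

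The sham pools also differed more among themselves. The median SD over members was 0.19 in lymphedema, 0.30 in sham and 0.13 in normal skin, and over all genes it was 0.20, 0.32 and 0.17. Of the 11 called members, 8 had all sham pools above all normal pools, against 20 of the 53 members and 9.71% of all genes. All lymphedema pools lay above all sham pools for 3 of the 11, against 4 of the 53 members and 6.63% of all genes. The 11 were called on the same lymphedema and normal pools, so these counts are descriptions. For 8 of the 11 the mean ratio of normal skin was below 0, lower in tail skin than in the embryo relative to the median feature. This held for 29 of the 53 members.

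**Figure D4:**
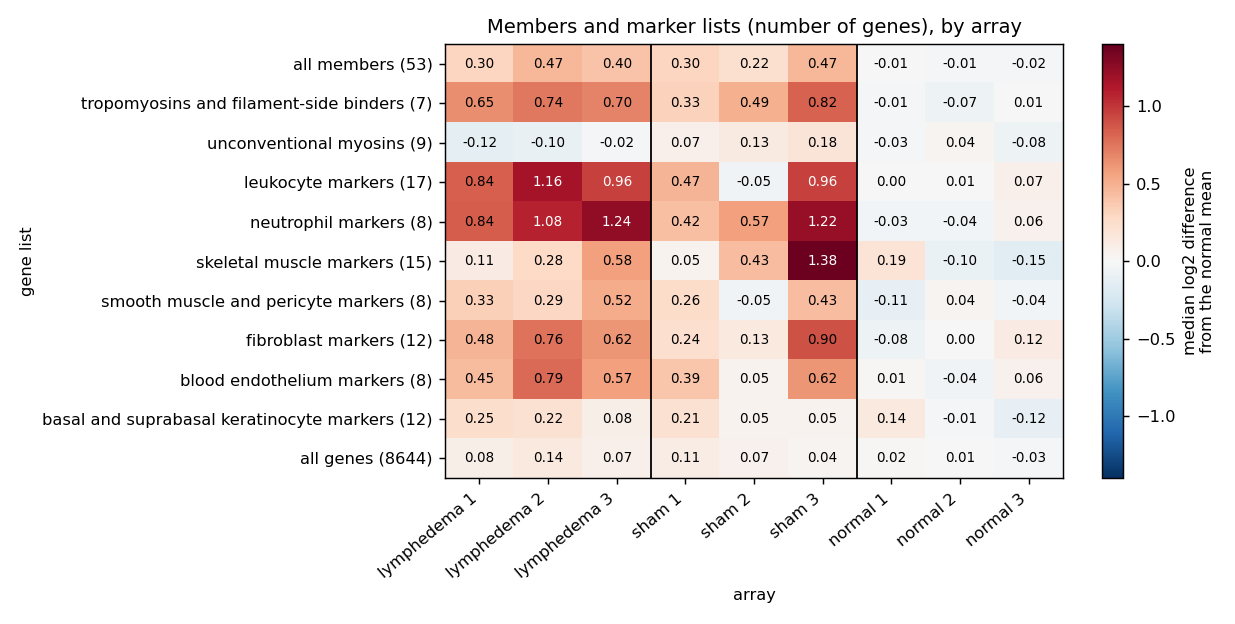
Median log2 difference from the normal mean (color and number in each cell) of the members and of marker lists that contain no member, for each of 9 arrays (columns). Members lie between 0.30 and 0.47 on lymphedema arrays and between 0.22 and 0.47 on sham arrays, and skeletal muscle markers reach 1.38 on sham array 3.

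Separate clones of a gene give a further view of each member, since they are different spots on the same arrays. Among member features, 5 pairs carry the same sequence record and are not separate cDNAs. Of the 36 members with more than 1 clone, 22 had clones of one sign in lymphedema against normal skin (61.1%), against 55.1% of 4000 genes. Of 160 member features, 15 were called higher and 1 lower by limma over all features (background 2.3% and 0.635%). Clones disagreed in sign for Flna, with differences of -0.69 and 0.87 at the extremes, for Coro1b, with -0.61 and 0.70, and for Arpc5, with -0.59 and 0.54. The mean of such a gene hides values on both sides of 0. Features that carry the same sequence record also differed: the gap was 0.01 for the pair of Actb, 0.12 and 0.88 for the pairs of Gsn, 0.91 for that of Wdr1 and 1.00 for that of Capzb. Over 336 such pairs of all named genes, the median gap was 0.37 and the 90th percentile 1.10. Of the 11 called members, 5 rested on 1 feature, Lcp1, Coro1a, Msn, Pfn1 and Tpm4. For Lcp1, Coro1a, Msn and Pfn1 there was no other clone and so no such check. Tpm4 had another clone, left out because it had values on only 5 arrays. That clone read -0.091 in lymphedema pool 1, -0.155 in sham pool 1 and -0.033, -0.595 and -0.556 in normal pools. Its lymphedema and sham values thus lay within the normal range, unlike those of the clone used. With 1 value in each operated state, a difference could not be tested on it.

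**Figure D5:**
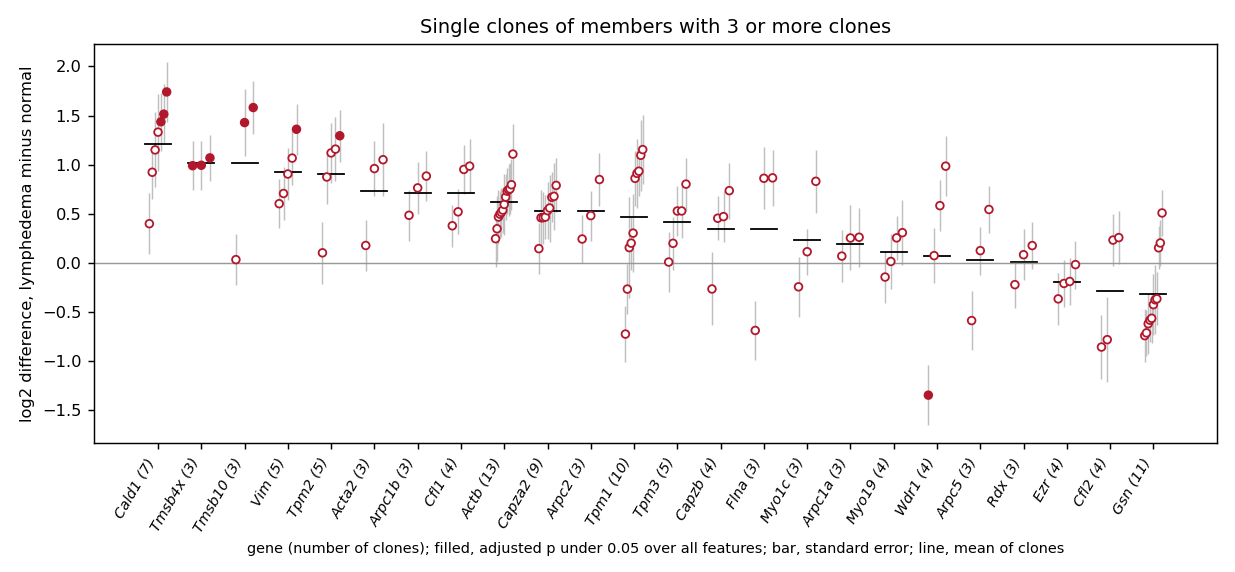
Log2 difference between lymphedema and normal skin (vertical axis) of single clones of members with 3 or more clones, with bars for standard errors, filled points for an adjusted p under 0.05 over all features, and a line at the mean. The 13 clones of Actb and the 9 of Capza2 are all above 0, while those of Tpm1, Gsn, Flna and Wdr1 lie on both sides.

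Genes that steer and power this machinery were read from lists that contain no member. Rac2, a GTPase of blood cells that is also on the leukocyte list, read 0.20, 0.22 and 0.17 in lymphedema pools, -1.18, -1.31 and 0.08 in sham pools, and -1.29, -1.05 and -1.59 in normal pools (log2 difference 1.51 ± 0.32, SE; limma adjusted p = 0.0313). It was high on sham array 3 and within the normal range on the other sham arrays.

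Of 11 factors that activate the Arp2/3 complex, 2 rose, Wasl (0.63) and Wipf1 (0.73), while no Arp2/3 subunit passed. Among 30 other actin binding proteins, Lsp1 (1.22), Marcks (0.84) and Palld (0.81) rose, and Lsp1 is also on the leukocyte list. Palld, palladin of stress fibers, read 0.38, 0.36 and 0.12 in lymphedema pools, -0.31, -0.25 and -0.32 in sham pools, and -0.39, -0.66 and -0.52 in normal pools. Lymphedema pools of Palld lay apart from all others.

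Nonmuscle myosin II, which pulls on actin filaments, had 5 genes measured. All 5 were positive, 1 was called, the light chain Myl6 (log2 difference 0.80 ± 0.19, SE; limma adjusted p = 0.0445), and the median was 0.79. The heavy chain Myh9 differed by 1.04 ± 0.27 (limma adjusted p = 0.0640). Of 20 focal adhesion proteins 0 were called, with a median of 0.25, and zyxin (Zyx) differed by 0.71 ± 0.18 (limma adjusted p = 0.0553).

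Serum response factor (SRF) switches on many actin genes through the CArG box, and its cofactors sense the actin monomer pool. Of 7 genes of this list 0 were called, their median was 0.36, and Srf itself differed by 0.42 ± 0.24 (SE; limma adjusted p = 0.348). The CArG box lay in 4 of the 64 promoters of 48 members (6.25%) and in 1.63% of all promoters, searched on both strands. Each member match was CC and GG with only A or T between them. Near forms with another base between them, as in the Acta2 window, were not counted. None of the 11 called genes had a counted box in this window. The stretches around the matches are shown from RefSeq (build GRCm38.p6) with the box in capitals, so that the members concerned can be set against their values above.
Actg1, chr11:120348551-120348610, minus strand: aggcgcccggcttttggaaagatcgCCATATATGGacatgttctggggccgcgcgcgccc
Cnn2, chr10:79988519-79988578, plus strand: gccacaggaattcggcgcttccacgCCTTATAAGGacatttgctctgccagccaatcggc
Vcl, chr14:20929148-20929205, plus strand: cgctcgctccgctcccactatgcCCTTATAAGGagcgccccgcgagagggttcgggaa
Arpc4, chr6:113377863-113377897, plus strand: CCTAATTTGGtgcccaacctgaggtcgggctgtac
The boxes began 90, 56, 227 and 250 bases before the start of Actg1, Cnn2, Vcl and Arpc4. Of these genes Actg1, Vcl and Arpc4 had positive differences and Cnn2 a negative one in lymphedema against normal skin, and none passed the test.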

How the data were processed

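Each sample was 1 cDNA array hybridized with pooled tail skin RNA and embryo reference RNA. The authors scanned the arrays and read them with GenePix 4.0, and deposited log ratios per feature, taken here as log2 ratios. Their methods describe background subtraction, dye normalization and removal of features dim in the reference channel; whether these steps came before deposit, and any centering, are not given in the sources used here, and the files hold no depth or intensity. The sign was turned, each array was centered on its median, and clones naming 1 gene were averaged over features with a value on all 9 arrays. A further 18 member features naming several genes were left out. Groups were compared with limma 3.58.1 (lmFit and eBayes, R 4.3.3) over 8644 genes with Benjamini-Hochberg adjustment. The code was tested on simulated data.

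Members and lists were chosen with earlier results of these data known. Every member could be named; full statistics went to members past the threshold, the 5 highest and 5 lowest in each comparison, and Actb, Actg1, Acta2, Vim, Gsn, Tmsb4x and Tmsb10. Other values are named as examples of a role. Alternatives changed centering, missing values, arrays fitted, test, block and clone, and left out each array. The pools are separate groups of mice. With 3 pools per state, precision is limited by their number. Replicate numbers are shared across states in the labels, but correlations of same-numbered arrays were between -0.24 and 0.28, so they were not taken as pairs. Results of 1 group of upstream regulators are not reported here.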

Additional observations from a re-analysis of the deposited data

How the results depend on the processing

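For lymphedema against normal skin, 11 members higher and 0 lower became 23 and 1 (SAM), 7 higher without centering (1.78% of all genes), 6 after quantile normalization (1.3%), 6 with missing values left in (1.68%), 18 and 1 with the arrays of both states alone (7.1% and 2.64%), and 5 and 1 with the first clone of each gene (1.62% and 0.567%). Leaving out 1 array gave 0 to 18 higher and 0 to 1 lower. The median difference of 0.39 became 0.24 after scaling to one median absolute deviation, 0.21 after quantile normalization and 0.20 with first clones. These scalings moved the median of all genes, 0.10, to 0.03 and -0.02, and members stood 0.21 and 0.23 above it, against 0.28 in the values reported.

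With the replicate number as a block, 4 members were higher, Coro1a, Lcp1, Tmsb4x and Tmsb10 (1.34% of all genes higher, 0.335% lower). With the set of arrays read from missing values as a block, lymphedema array 1 alone stood against the normal arrays, so calls cannot be judged there. The numbers did not pair the samples, with correlations between -0.24 and 0.28. The other 7 calls were lost under the block of replicate numbers and none was added.

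For sham against normal skin, the median of 0.31 became 0.14 with first clones, members lower ran between 0 and 1 when 1 array was left out, and Myo7a turned to 0.18 with the set of arrays as a block. For lymphedema against sham skin, members higher ran between 0 and 2 when 1 array was left out. Over 39 results of single members, with up to 18 alternatives each, 583 values kept direction and side of the threshold, 107 fell short of it, 11 newly passed it and 1 reversed. Every value that fell short belonged to the 11 members called in lymphedema against normal skin, the only results with a call to lose. Coro1a was called in 13 of 18 alternatives, Lcp1 and Tmsb4x in 12, and Msn in 11. Cald1, Tmsb10 and Vim were called in 8, Pfn1 in 7, Tagln2 in 6, and Capg and Tpm4 in 3. The causes were not tested. Intensity over background, which limits the precision of each ratio, is unknown here.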
